A study of Mus musculus with 6 samples.

Results

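Regulatory T cells are CD4 T cells that restrain other immune cells, and Foxp3 is the transcription factor that sets up and maintains their programme. The 8 genes described here are widely used to recognise them: Foxp3, Ctla4, Il2ra, Ikzf2, Ikzf4, Nrp1, Lrrc32 and Gpr83. A probe set, the group of array probes read out as a single value, was assigned to a gene where the platform annotation named that gene alone. Of the 8 genes, 6 had such a probe set, 11 probe sets in all, among 17097 genes and 28898 probe sets with a single symbol. In the annotation used here no probe set named Lrrc32, which displays latent TGF-β on the cell surface, or Gpr83, a G protein-coupled receptor, so neither gene has a value here. The genes were chosen by textbook membership together with earlier results of the same CD11c+ against CD11c- contrast, in which Ctla4 and Foxp3 were already known to be lower. Their differences between the fractions are therefore given as a description, with no test.

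Both groups came from the blood of the same 3 naive C57BL/6 females, mice A, C and D, aged 6 to 8 weeks. All had received 3 mg of Depo-Provera, a progestin, under the skin 5 days (by the labels) before blood was drawn, so no group without the progestin was measured. CD11c+ T cells were sorted as CD3+ CD62L- CD44high CD11c+, and CD11c- T cells as CD3+ CD62L- CD44high CD11c-, which makes both groups activated effector memory cells by their gate, with no marker of regulatory T cells in it. Each of the 6 samples held 300 cells and was hybridised to its own Affymetrix array after amplification of its RNA, giving 3 CD11c+ and 3 CD11c- arrays that are paired by mouse.

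Values are log2 RMA signals, so a difference of 1 stands for a 2-fold change, and differences are CD11c+ minus CD11c- within a mouse. A mean at or below 5.892 was taken as not above background, the level that 95% of 36 genes specific to other organs stayed under, such as those of liver, eye and testis. Array medians lay between 4.4 and 4.537. Over the whole array the CD11c+ cells had 432 of 45141 probe sets called higher (0.957%) and 76 called lower (0.168%) at an adjusted p under 0.05 in limma with the mouse as a block. Counted by gene, with a gene read from its probe set of highest mean, these were 1.4% higher and 0.222% lower. The labelled cell type was checked first. All 10 measured T cell markers, among them the CD3 chains, were above background in both fractions, with a list mean of 9.16 to 9.52 in CD11c+ and 9.82 to 10.03 in CD11c- arrays. Of these markers 8 were lower in CD11c+ cells in 3 of 3 mice. In limma 1 was called higher, 2 lower and 7 did not pass. The 2 lower ones were Cd5, with a difference of -1.62 (adjusted p = 0.0416), and Cd6, with -1.85 (adjusted p = 0.0209).

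The programme is read here by roles. Foxp3 acts in the nucleus, with the Ikaros family factors Helios, encoded by Ikzf2, and Eos, encoded by Ikzf4, as partners of regulatory T cells. At the surface, CTLA-4 takes up the costimulatory ligands CD80 and CD86 from antigen-presenting cells, CD25, encoded by Il2ra, is the high-affinity chain of the IL-2 receptor, and neuropilin-1, encoded by Nrp1, is a co-receptor for semaphorins and VEGF. Many regulatory T cells that arise in the thymus carry Helios and neuropilin-1, but neither is limited to them.

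The upstream sequences of the 2 members with the largest differences, Foxp3 and Ctla4, are shown as a description. Whether the 2 genes share a regulation in these cells was not tested. They are the 250 bases before RefSeq start sites in build GRCm38.p6, all on the plus strand and written 5′ to 3′, and capitals mark matches to the motifs named below. Foxp3 has 2 listed start sites, with windows at chrX:7579426-7579675 and chrX:7580233-7580482, and Ctla4 has 1, with its window at chr1:60908775-60909024.
Foxp3, first start site: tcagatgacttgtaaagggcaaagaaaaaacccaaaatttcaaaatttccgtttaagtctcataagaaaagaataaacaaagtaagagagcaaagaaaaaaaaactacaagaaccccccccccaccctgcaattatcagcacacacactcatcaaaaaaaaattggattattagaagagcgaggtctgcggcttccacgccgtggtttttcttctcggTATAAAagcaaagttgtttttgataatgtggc
Foxp3, second start site: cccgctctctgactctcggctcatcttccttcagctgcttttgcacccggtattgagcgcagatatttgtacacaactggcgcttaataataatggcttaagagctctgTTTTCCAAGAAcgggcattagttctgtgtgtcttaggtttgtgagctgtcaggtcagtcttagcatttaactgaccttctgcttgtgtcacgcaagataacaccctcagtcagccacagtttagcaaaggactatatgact
Ctla4: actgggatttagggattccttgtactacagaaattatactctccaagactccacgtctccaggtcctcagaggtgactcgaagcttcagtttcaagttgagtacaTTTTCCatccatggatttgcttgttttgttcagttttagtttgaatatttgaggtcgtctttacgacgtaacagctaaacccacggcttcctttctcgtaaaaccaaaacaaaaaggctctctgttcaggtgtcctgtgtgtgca

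A set of 6 motifs was searched on both strands of these windows. The search covered the forkhead motif GTAAACA, the RUNX motif TGTGGT, the NFAT motif GGAAAA, the STAT motif TTCNNNGAA, the Ikaros motif TGGGAA and the TATA motif TATAAA. In 32851 windows of the same length over all listed genes, they occurred in 3.17%, 14.0%, 20.4%, 7.02%, 21.6% and 12.4%, in that order. The first Foxp3 window held TATAAA, starting 32 bases before the start site. The second held GGAAAA on the minus strand, 141 bases before the start site, which overlaps a STAT motif that begins 139 bases before it. The Ctla4 window held GGAAAA on the minus strand, 145 bases before the start site. The window of Gpr83 held the Ikaros motif TGGGAA, 120 bases before the start site. The windows of Il2ra and Nrp1 held none of the 6 motifs, with a G and C content of 42.4% and 64.4%. These matches are a description of the letters and do not show that a factor binds there.

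Foxp3 and Ctla4 were the members with the widest gap between the fractions. Foxp3 (1420765_PM_a_at) had a log2 signal of 6.16, 6.01 and 5.12 in CD11c+ cells of mice A, C and D, against 8.22, 8.27 and 8.12 in CD11c- cells. The CD11c- arrays agreed closely and the CD11c+ arrays lay 1.97 or more below them. Foxp3 averaged 5.76 ± 0.56 on CD11c+ arrays and 8.21 ± 0.076 on CD11c- arrays (SD, n = 3 each), a difference of -2.44 ± 0.49. Since the CD11c+ mean was not above background, the fold is given as a lower bound, with any array under the background level set to it. The bound is for the mean of the 3 mice on the deposited RMA scale, where Foxp3 was at least 4.56-fold lower in CD11c+ cells. With the arrays centred on the CD3 chains the difference was -1.705, so the bound does not carry over to that scaling. In cells pooled in this way, fewer cells of a type and less RNA per cell cannot be told apart. Foxp3 was still just above background on 2 of the 3 CD11c+ arrays.

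Ctla4 (1419334_PM_at) had a log2 signal of 6.18, 5.16 and 5.55 in CD11c+ cells of mice A, C and D, against 8.70, 8.58 and 8.19 in CD11c- cells. The groups did not overlap, and the CD11c+ array of mouse A was the single one of the CD11c+ arrays above background. The difference was -2.86 ± 0.49 (SD, n = 3 mice), and by the same bound Ctla4 was at least 5.65-fold lower in CD11c+ cells on the deposited scale. With the arrays centred on the CD3 chains the difference was -2.12. Ctla4 is induced in activated conventional T cells as well as held high in regulatory T cells, and both fractions were gated as activated.

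**Figure D1:**
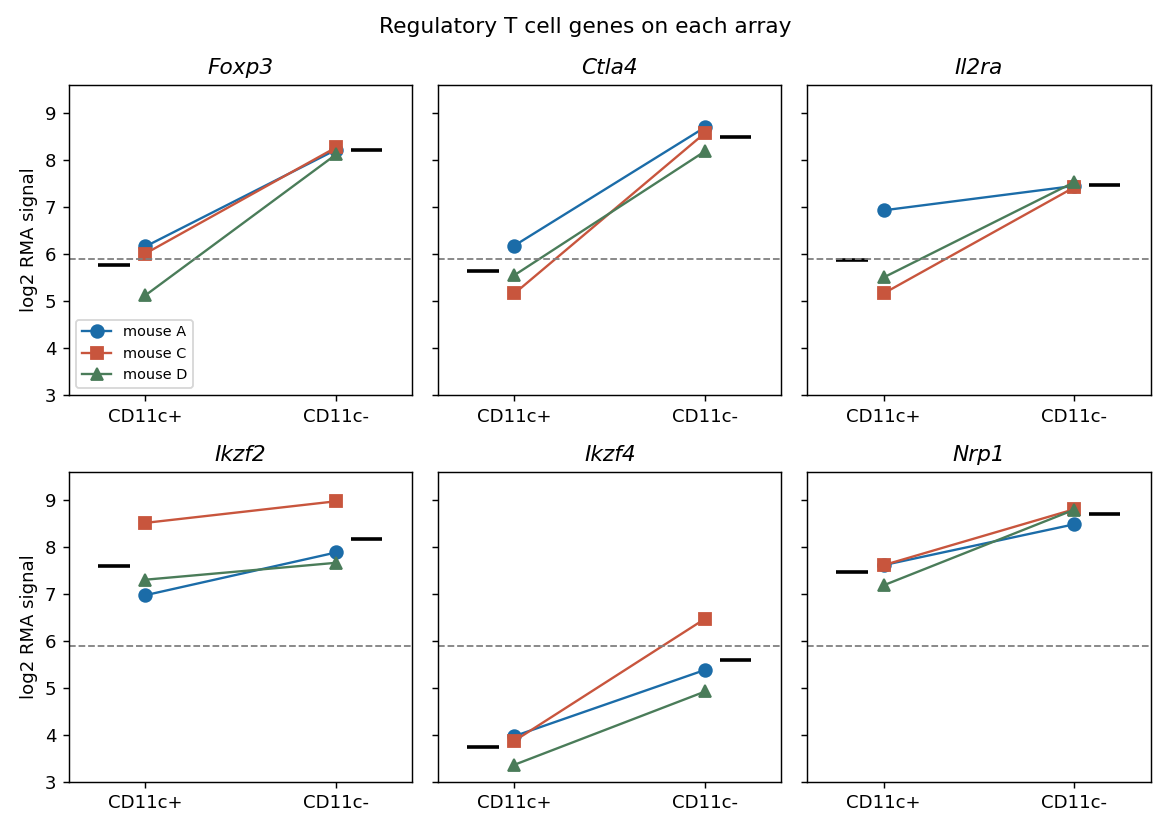
Log2 RMA signal (vertical axis) of the 6 measured regulatory T cell genes in the CD11c+ and the CD11c- array of each mouse (horizontal axis), with lines joining the 2 arrays of a mouse, black bars at each group mean and dashes where the background level of 5.892 lies. Foxp3 and Ctla4 lie near the background level in CD11c+ cells and above 8 in CD11c- cells, while Ikzf2 lies above background on all 6 arrays and is highest in mouse C in both fractions.

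The Il2ra difference varied between the mice, with a single array per mouse and fraction. By its brighter probe set (1420691_PM_at) the log2 signal was 6.93, 5.16 and 5.50 in CD11c+ cells of mice A, C and D, against 7.45, 7.42 and 7.53 in CD11c- cells. The CD11c- arrays were nearly equal, and among the CD11c+ arrays mouse A stood well above the other two. The paired differences were accordingly -0.52 in mouse A, -2.26 in mouse C and -2.03 in mouse D, with a mean of -1.60 ± 0.94 (SD). Without mouse A the mean difference was -2.15. The CD11c+ mean of 5.87 lay just under the background level, with the array of mouse A alone above it. On the deposited scale the mean of Il2ra over the mice was at least 2.35-fold lower in CD11c+ cells. With the arrays centred on the CD3 chains the mean difference was -0.87. A second probe set of Il2ra (1420692_PM_at) was not above background on any array and had a difference of -0.93 ± 0.59, with overlapping groups.

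The Ikaros family members differed from each other. Ikzf2 (1421643_PM_at) had a log2 signal of 6.97, 8.51 and 7.30 in CD11c+ cells of mice A, C and D, against 7.88, 8.97 and 7.66 in CD11c- cells. The groups overlapped, because mouse C was high in both fractions. Within each mouse the CD11c+ array was lower, with differences of -0.90, -0.46 and -0.36 and a mean of -0.58 ± 0.29 (SD, n = 3 mice), which turned to 0.16 when the arrays were centred on the CD3 chains. Its second probe set (1437542_PM_at) had a difference of -0.13 ± 0.51, lower in 2 of 3 mice. Both probe sets of Ikzf2 were above background on all 3 CD11c+ arrays, in which Foxp3 was near background.

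Mouse C stood apart for Ikzf2 by more than the fractions did. It exceeded the mean of mice A and D by 1.37 in CD11c+ and by 1.20 in CD11c- cells, and by 0.65 and 0.81 with the second probe set. The mouse term of the same limma fit does not involve the contrast between the fractions, and it was examined after these values were seen. For the brighter probe set it gave an unadjusted p of 0.0034 and an adjusted p of 0.617 over 45141 probe sets, so Ikzf2 did not pass. No probe set passed for the mouse term in limma (0%), and 3497 had an unadjusted p under 0.05.

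Ikzf4 was dim. Its brighter probe set (1460664_PM_at) had a log2 signal of 3.97, 3.87 and 3.36 in CD11c+ cells of mice A, C and D, against 5.38, 6.47 and 4.92 in CD11c- cells. The groups did not overlap, and the CD11c- array of mouse C was the only one above background. The difference was -1.86 ± 0.65 (SD, n = 3 mice), and as neither mean was above background no fold is given. The second probe set of Ikzf4 (1438274_PM_at) had a difference of -0.97 ± 1.18, with mouse C at -2.27 and mouse A at 0.048. Mouse C had the highest Ikzf4 signal of the CD11c- arrays with both probe sets, as it had for Ikzf2.

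Nrp1 was lower in each mouse with each of its 3 probe sets. The brightest one (1418084_PM_at) had a log2 signal of 7.61, 7.61 and 7.18 in CD11c+ cells of mice A, C and D, against 8.48, 8.80 and 8.79 in CD11c- cells. The groups did not overlap and all 6 arrays were above background, so this fold is a measured one, 2.34-fold lower in CD11c+ cells. The difference was -1.23 ± 0.38 (SD, n = 3 mice), and the other 2 probe sets had -1.35 ± 0.30 (1448944_PM_at) and -1.01 ± 0.12 (1448943_PM_at, with neither mean above background), each with groups that did not overlap. With the arrays centred on the CD3 chains the difference of the brightest probe set was -0.49.

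Over the 6 measured members the median difference was -1.73, against -0.086 over all 17097 genes. All 6 were lower in CD11c+ cells in 3 of 3 mice, as were 26.5% of all genes, and 5 of the 6, the exception being Ikzf2, had CD11c+ arrays that were all below the CD11c- arrays, as had 12.5% of all genes. The contrast behind these counts also led to the choice of the genes, so nothing is read from them. The median was -1.16 in mouse A, -2.26 in mouse C and -1.82 in mouse D.

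**Figure D2:**
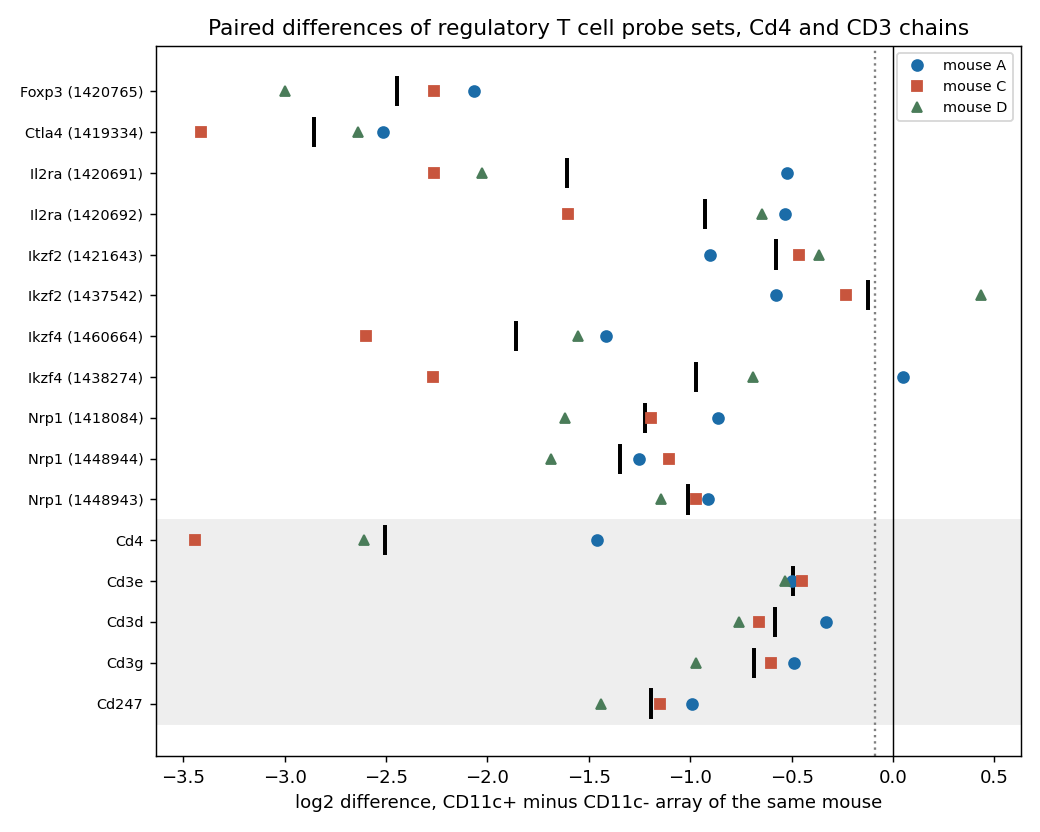
Log2 difference between the CD11c+ and the CD11c- array of the same mouse (horizontal axis) for the 11 probe sets of the regulatory T cell genes, with their numbers in brackets, and, on grey, for Cd4 and the CD3 chains (vertical axis). Symbols are mice, black ticks the mean of 3 mice and the dotted line the median of all genes, -0.086. Ctla4 has the lowest mean, -2.86, and the second probe set of Ikzf2 the one nearest to 0, -0.13. Taking the CD3 chains as the zero of each array would move the means right by 0.739, which puts both probe sets of Ikzf2 above 0.

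Cd4, the co-receptor of helper and regulatory T cells, was low on the same arrays. It had a log2 signal of 8.85, 6.65 and 7.90 in CD11c+ cells of mice A, C and D, against 10.31, 10.09 and 10.51 in CD11c- cells, a difference of -2.50 that did not pass the test (limma, adjusted p = 0.0973). Cd4 was lower in 3 of 3 mice and was above background on all 6 arrays. Of the CD8 co-receptor chains, Cd8b1 was higher in CD11c+ cells by 1.43 (adjusted p = 0.0333), and of the 3 probe sets of Cd8a 1 passed, with a difference of 1.55 (adjusted p = 0.0343), while the brightest had 1.54 (adjusted p = 0.151). For the 2 members above background on all 6 arrays by their brightest probe set, the difference minus that of Cd4 was 0.59, 2.25 and 1.00 in mice A, C and D for Nrp1, a mean of 1.28 ± 0.87 (SD), and 1.93 ± 1.25 for Ikzf2, with values above 0 in 3 of 3 mice for each. The same value was 0.06 ± 0.98 for Foxp3 and -0.35 ± 0.61 for Ctla4. It was 0.90 ± 0.30 for Il2ra and 0.65 ± 0.54 for Ikzf4. Background limits the CD11c+ signals of Foxp3, Ctla4, Il2ra and Ikzf4, so nothing is read from their values. The part of a lower share of CD4 T cells in the lower signals was not tested.

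The wider set of genes linked to regulatory T cells was read from 7 lists, 93 genes in all with 84 measured. Of these, 2 were higher, 3 lower and 79 did not pass at an adjusted p under 0.05 in limma, beside the 1.4% and 0.222% of all genes, and the median difference was -0.084 against -0.086 over all genes. Taking the CD3 chains as the zero of each array adds 0.739 to all of these differences. This shift comes from the mean difference of Cd3e (-0.49), Cd3d (-0.58), Cd3g (-0.69) and Cd247 (-1.19). A sign that turns under it can therefore depend on the chain used. Receptors and ectoenzymes stood lowest among the lists, with a median of -0.95 over 17 measured genes, of which 0 were higher, 2 lower and 15 did not pass. Izumo1r, which encodes the folate receptor family member FR4, had a log2 signal of 7.24, 6.89 and 7.26 in CD11c+ cells of mice A, C and D, against 9.45, 9.69 and 8.96 in CD11c- cells. The groups did not overlap, and Izumo1r fell by 2.23 in log2 units (limma, adjusted p = 0.0487). Tnfrsf4, which encodes the costimulatory receptor OX40, had 7.07, 6.51 and 6.89 in CD11c+ cells against 8.46, 8.57 and 8.59 in CD11c- cells and fell by 1.72 (adjusted p = 0.042). Activated conventional CD4 T cells carry OX40 too.

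Other receptors of this list did not pass. Ccr4, a chemokine receptor, had 7.34, 5.96 and 5.66 in CD11c+ cells of mice A, C and D, against 9.18, 9.23 and 9.48 in CD11c- cells, the largest difference of the list at -2.98 ± 1.02 (SD; adjusted p = 0.074). As for Il2ra, the CD11c+ array of mouse A was the highest of the 3. The costimulatory receptors Icos and Cd28 had -1.56 (adjusted p = 0.0736) and -1.55 (adjusted p = 0.0555), and Tnfrsf18, which encodes GITR, -0.95 (adjusted p = 0.124). The ectoenzymes that make adenosine differed in direction, with -1.29 for Nt5e, which encodes CD73 (adjusted p = 0.123), and 0.68 for Entpd1, which encodes CD39 (adjusted p = 0.327). The immune checkpoint receptors Lag3, Havcr2 and Pdcd1 were not above background in either fraction. Il1r2 had the highest difference of the list, 1.12 (limma, adjusted p = 0.159), with neither mean above background. Of the 17 measured genes of the list 12 were below 0.

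Of 23 measured regulators of Foxp3, 0 were higher, 0 lower and 23 did not pass in limma, with a median of -0.090 that turns above 0 under the CD3 scaling, and 22 were above background in each fraction. Stat5a and Stat5b, which act below the IL-2 receptor, had differences of 0.00 ± 0.63 and -0.38 ± 0.34 (SD, n = 3 mice). Runx1 had 0.30 and its partner Cbfb 0.074. Nr4a1, an early response gene of T cell receptor signalling, had 1.73 ± 1.13 (adjusted p = 0.219) and Prdm1, which encodes Blimp-1, -0.82 (adjusted p = 0.209). The 3 Ikaros family genes outside the members, Ikzf1, Ikzf3 and Ikzf5, had -0.17, -0.33 and 0.061, all above 0 under the CD3 scaling, and 0 of the 3 passed.

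In the IL-2 axis 0 of 9 measured genes passed, with a median of -0.71. The CD3 scaling, with its shift of 0.739, turns this direction only narrowly. Il2rb, the β chain of the IL-2 receptor, had -0.71 (adjusted p = 0.161) and Cish, a target of STAT5, -0.83 (adjusted p = 0.0955), each with the CD11c+ array lower in 3 of 3 mice. The suppressive effectors had a median of 0.18 over 8 genes, of which 1 was higher. Gzmb, a granzyme of cytotoxic cells as well, had 10.13, 9.46 and 9.53 in CD11c+ cells of mice A, C and D, against 6.62, 6.23 and 7.48 in CD11c- cells, and rose by 2.93 (adjusted p = 0.049). Tgfb1 had a difference of 1.02 ± 0.15 (adjusted p = 0.0669), higher in 3 of 3 mice, and Il10 was not above background in either fraction, with means of 2.68 in CD11c+ and 2.66 in CD11c- cells. Of 12 ligands and binding partners of the members 0 passed. Cd80 and Cd86, the ligands of CTLA-4, had 0.68 (adjusted p = 0.477) and 0.67 (adjusted p = 0.388), with only the CD11c+ means above background.

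Genes of other helper T cell fates went both ways. Of 12 measured, 1 was higher and 1 lower. Gata3, the factor of type 2 helper cells that regulatory T cells also use, had 6.03, 5.09 and 5.47 in CD11c+ cells of mice A, C and D, against 7.37, 7.07 and 7.55 in CD11c- cells, and fell by 1.80 (adjusted p = 0.0486). Its CD11c+ mean was not above background, which makes it at least 2.63-fold lower on the deposited scale. With the arrays centred on the CD3 chains the difference of Gata3 was -1.06. Il12rb2, a receptor chain for IL-12, rose by 1.26 (adjusted p = 0.0456), with neither mean above background. Among the genes that did not pass, Cd40lg, a ligand of helper T cells, had -2.45 ± 0.84 (SD; adjusted p = 0.076) and Rora -1.53 (limma, adjusted p = 0.0995). Bcl6 had 2.19 (adjusted p = 0.106) and Il4 1.45 (adjusted p = 0.0882). None of the 5 calls in these lists remained with the arrays centred on their median or after cyclic loess, or without mouse A or without mouse C. Izumo1r (adjusted p = 0.0372) and Gzmb (adjusted p = 0.0134) still passed without mouse D, and the others did not.

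**Figure D3:**
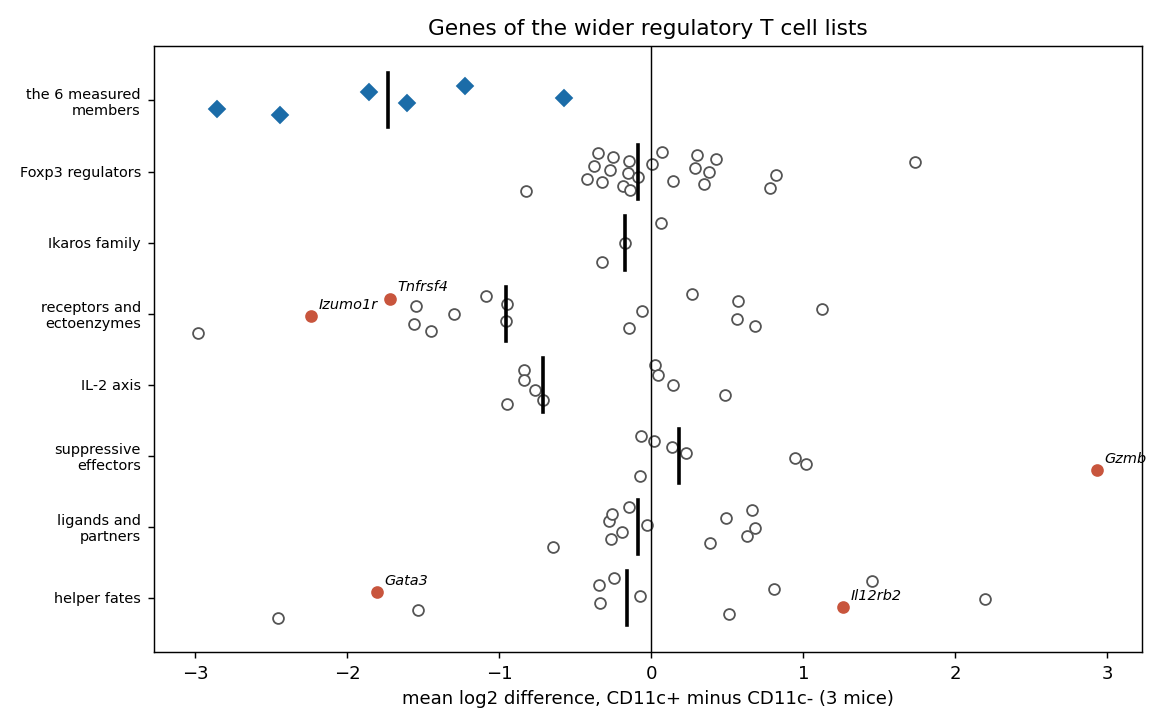
Mean log2 difference over 3 mice (horizontal axis) of the 6 measured regulatory T cell genes (diamonds) and of the measured genes of 7 lists (circles, vertical axis). Filled circles passed an adjusted p of 0.05 in limma and black ticks are medians. The receptors have a median of -0.95 and the regulators of Foxp3 one of -0.090. With the CD3 chains as the zero of each array all points would lie further right by 0.739, the medians of all lists but the receptors above 0.

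The genes whose profile over the 6 arrays was most like that of Foxp3 were found by the root mean square distance of mean-centred log2 values, among 6003 genes above background in CD11c- cells. For Foxp3 they were Dnah8 (0.22), Gbp10 (0.27), Tnfrsf25 (0.28), Ccr6 (0.31) and Rflnb (0.35), with the distance in log2 units in brackets. For Ctla4 the nearest were Cd40lg (0.31), Rflnb (0.32), Ccr4 (0.40), Izumo1r (0.40) and Nebl (0.41). The 6 arrays come from 3 mice and the candidates were kept by their level in CD11c- cells alone. Foxp3, Ctla4, Dnah8, Gbp10 and Nebl had CD11c+ means not above background, so part of these distances lies between values near background, and the order is a description.

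Many markers of other blood cells were higher in the same CD11c+ samples, though not all genes of each list. The monocyte and macrophage markers had a list mean of 7.66 to 8.19 in CD11c+ and 5.10 to 5.29 in CD11c- arrays, with 5 of 9 genes higher in limma, and the conventional dendritic cell markers 7.98 to 8.46 in CD11c+ and 4.43 to 4.93 in CD11c- arrays, with 5 of 8 higher, Itgax, which encodes CD11c, among them. Among the dendritic cell markers Clec10a, Cd209a, H2-Ab1 and Cd74 were also higher, by 5.00 to 6.86, Flt3 had a difference of 1.35 that did not pass (adjusted p = 0.173), and the lineage factor Zbtb46 and the receptor Xcr1 were not above background in either fraction. Plasmacytoid dendritic cells also carry neuropilin-1. Their markers had a list mean of 5.78 to 6.15 in CD11c+ and 5.11 to 5.33 in CD11c- arrays, with 2 of 7 higher and 3 below 0. Of the 2 higher ones Tcf4 was not above background in either fraction. Pacsin1 was lower in 3 of 3 mice, with a difference of -0.84 that did not pass. Basophil and mast cell markers had 7.78 to 8.61 in CD11c+ and 4.03 to 4.13 in CD11c- arrays, with 6 of 7 higher. B cell markers had 5.76 to 6.92 in CD11c+ and 5.03 to 5.63 in CD11c- arrays, with 1 of 6 higher. Among them Blk was lower in 3 of 3 mice, with a difference of -1.28 that did not pass. NK cell markers had 7.79 to 7.97 in CD11c+ and 6.42 to 6.48 in CD11c- arrays, with 3 of 7 higher and 1 lower. The part of these cells in the lower signals of the regulatory T cell genes was not tested. In mouse A, whose CD11c+ array had the highest Il2ra and Cd4 of the 3, the CD11c+ array had the highest T cell, B cell and plasmacytoid dendritic cell list means of the 3 and the lowest monocyte, conventional dendritic cell, basophil, NK cell and platelet list means. The T cell list includes Cd4, these are ranks of a single array, and a link between them was not tested.

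**Figure D4:**
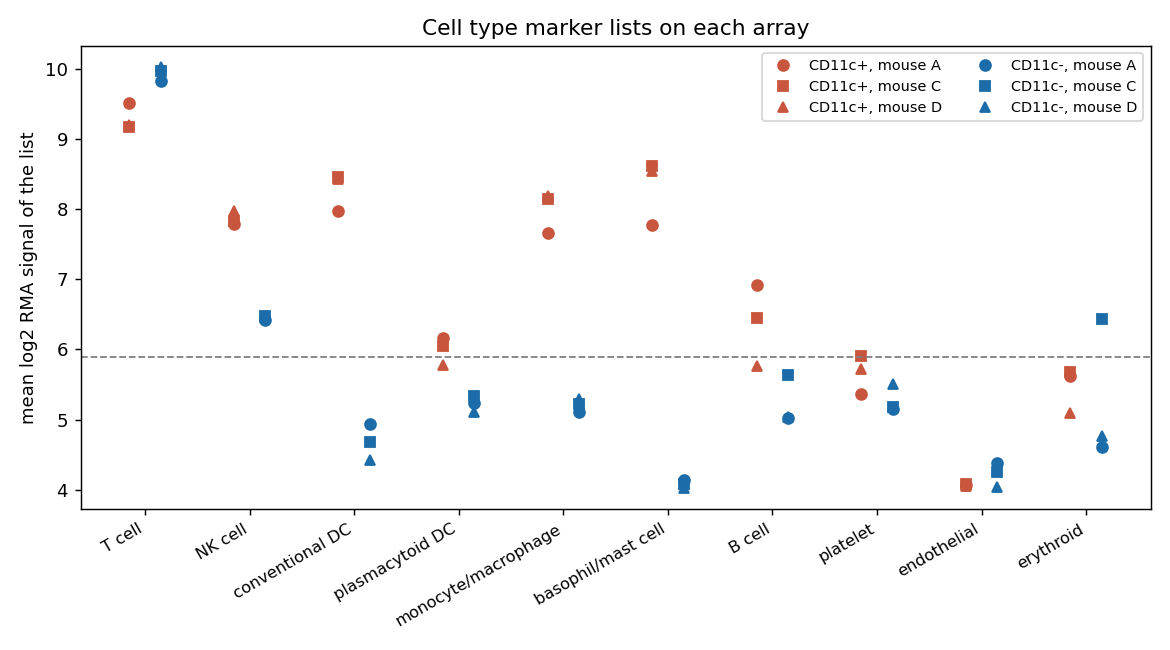
Mean log2 RMA signal of each cell type marker list (vertical axis, lists on the horizontal axis) on the 3 CD11c+ arrays (red) and the 3 CD11c- arrays (blue), with marker shape for the mouse and dashes where the background level of 5.892 lies. T cell markers lie above 9 in both fractions, and basophil and mast cell markers lie above 7.7 in CD11c+ and below 4.2 in CD11c- arrays.

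Platelet markers had list means of 5.37 to 5.90 in CD11c+ and 5.15 to 5.50 in CD11c- arrays, with 1 of 7 higher, and endothelial markers, 0 of 7 higher, were below background in both fractions. Erythroid markers had 5.09 to 5.68 in CD11c+ and 4.60 to 6.44 in CD11c- arrays, with 0 of 4 higher.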

How the data were processed

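The deposited values are log2 signals. The authors read the images with the Affymetrix GeneAtlas software and made the deposited log2 values by RMA. The submitters' processing notes name RMA and limma, without a version. RMA makes array distributions alike, so a change in total RNA per cell cannot be seen.

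All 45141 probe sets, 104 of them controls, were tested with limma 3.58.1 in R 4.3.3, two-sided, unfiltered, with mouse as a fixed block and p-values adjusted by Benjamini-Hochberg across the array. In the labels both arrays of a pair belong to the same mouse. Deviations of paired arrays correlated at 0.122, 0.0758 and 0.109. With 2 residual degrees of freedom the number of arrays limits the precision. On simulated data for CD11c+ against CD11c- over 45141 probe sets, 50 probe sets were changed at each of 4 sizes. The fit called 0% of those changed by 1 in log2 units, 60% at 2, 80% at 4 and 94% at 6, and 3 unchanged ones. Fewer probe sets were changed in the simulation than were called in the data, and its noise was drawn independently for each probe set. These shares therefore need not hold for the measured contrast.

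By the platform annotation 28898 probe sets had 1 gene symbol, 551 had several and 15692 had none. A gene was read from its probe set of highest mean. The genes and lists were chosen with earlier results of these data known. Named genes were the members, list genes that passed or were among the 4 at either end of a list, and the 5 profiles nearest to Foxp3 and to Ctla4. Stat5a, Runx1, Cbfb, Il2rb, Cd28, Nt5e, Tnfrsf18, Lag3 and Pdcd1 fall outside this rule and were named after their values were seen. Alternatives changed the block, the normalization or centring, how probe sets were combined, the filter on dim ones and the variance model, or left out a mouse. Promoter windows are from RefSeq and 5 of the 8 members matched. Ikzf2, Ikzf4 and Lrrc32 had no entry.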

Additional observations from a re-analysis of the deposited data

How the results depend on the processing

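Over the array, 432 probe sets were called higher and 76 lower in CD11c+ cells with mouse as a fixed block. The counts were 684 and 211 with no replicate block, 684 and 207 with a trended variance, 812 and 316 when the mouse was a random block and 22412 and 232 with the arrays centred on the CD3 chains, which moves the median of all probe sets up by 0.739. Probe sets above the median mean gave 140 lower, genes read as the mean of their probe sets 151 lower and cyclic loess 41 lower. Leaving out a mouse gave 0 to 348 higher and 0 to 44 lower, with 0 and 0 in limma when mouse A was dropped (before adjustment 2796 and 2767 had a p under 0.05), 175 and 2 without mouse C and 348 and 44 without mouse D.

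Of the 84 list genes, 2 were higher and 3 lower. With no replicate block they were 4 and 9, with a random block 5 and 10, with the mean of probe sets 5 and 11, with centring on the CD3 chains 42 and 9, with the filter 7 lower and with the trended variance 8 lower. After median centring they were 0 and 0 (14 and 21 at an unadjusted p under 0.05) and after cyclic loess 0 and 0 (15 and 21). Leaving out a mouse gave 0 to 1 higher and 0 to 1 lower.

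The median difference of the members was -1.73, and -0.99 with the arrays centred on the CD3 chains. It ran from -2.11 to -1.38 when a mouse was left out. With the CD3 centring Ikzf2 turned to 0.16. Of 48 values of single members under the alternatives, 43 moved by less than 1 SD between mice, 4 by more, all after CD3 centring (Foxp3, Ctla4, Ikzf4 and Nrp1), and 1 changed sign. Part of this count was fixed beforehand, so it is no measure of stability. Leaving out 1 of 3 mice cannot move a mean by 1 SD, and removing the block changes no difference. Foxp3 and Ctla4 have 1 probe set each, so combining probe sets cannot move them. The paired and unpaired fits give the same differences, and the block changed no direction. Dim signals limit Ikzf4, the second Il2ra probe set and the CD11c+ levels of Foxp3 and Ctla4.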

Other observations

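A further 2 probe sets are annotated to both Foxp3 and Ccdc22 and cannot be assigned to either. The first (1447759_PM_x_at) had a log2 signal of 5.87, 6.10 and 6.04 in CD11c+ cells of mice A, C and D, against 6.58, 6.33 and 6.25 in CD11c- cells. The second (1455805_PM_x_at) had 5.65, 6.11 and 4.59 in CD11c+ cells, against 6.08, 7.12 and 6.73 in CD11c- cells. Their mean differences were -0.38 ± 0.28 and -1.19 ± 0.87 (SD, n = 3 mice), nearer to 0 than the -2.44 of the probe set that names Foxp3 alone.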
